A study of Homo sapiens with 18 samples.

Results

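RNA was compared between 4N and 2N cells sorted from cultures of RPE1 that had been given ZM447439. The comparison used 6 of the 18 libraries of the series, 3 of ZM447439 4N cells and 3 of ZM447439 2N cells, and the 13037 of 57773 genes in the table whose mean over all 18 libraries was at least 0.5 RPKM. RPE1, in full hTERT-RPE1, is an established human line of retinal pigment epithelium, immortalised with telomerase and with a nearly normal chromosome number. Per the labels' protocols the cells, grown with 10% serum, were exposed to 2.5 µM of ZM447439 over 24 h, and their DNA was then stained during 60 min with 2 µg/mL of Hoechst, by which they were sorted. All groups are this 1 line, which carries added telomerase, and, as the design has biological replicates sorted into both populations, libraries with the same number were taken as a pair from 1 culture. The other groups were CytochalasinD 4N and 2N cells and untreated 4N and 2N cells, again with 3 libraries each, and they entered here through the estimate of spread and through tests of whether the difference between sorts changed with treatment. The treatment text is the same on every library and gives no dose or time for CytochalasinD.

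ZM447439 inhibits Aurora kinases. Aurora A builds the spindle, and Aurora B, in a complex with INCENP, survivin and borealin, corrects the attachment of chromosomes and drives cytokinesis. Cells without Aurora B activity often leave mitosis undivided with a doubled genome. A 4N sort can therefore hold diploid cells in G2 or mitosis as well as tetraploid cells in G1, whereas a 2N sort holds diploid cells in G1, and cells in early S phase fall near it. In cycling cells the genes for mitotic proteins are read mostly in G2, through the MuvB complex with B-MYB and FOXM1. The DREAM complex, p53 and its target p21 hold them down.

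Levels are RPKM, reads scaled to library size and gene length. In the deposited table the length was that of the whole gene with its introns, so levels compare libraries for 1 gene and not 1 gene with another. Differences are on the log2(RPKM + 0.5) scale, 4N minus 2N, which understates the change of weak genes, and errors are standard errors (SE) from limma. A gene was said to rise or fall where limma's p, adjusted over all genes tested by the Benjamini-Hochberg method, was under 0.05. A second fit with culture as a replicate block compared the sorts within each culture, and values from it are named as such. RPKM is relative to the whole library, and in such bulk samples fewer cells of a type cannot be told apart from less RNA per cell. The labels of the line were checked against markers. KRT18 had 45.9 to 92.1 RPKM in ZM447439 4N cells and 71.9 to 121 RPKM in ZM447439 2N cells, OTX2 had 2.70 to 3.06 RPKM in 4N and 2.48 to 3.44 RPKM in 2N cells, and RPE65 and TYR, genes of the mature pigment epithelium, were at most 0.036 RPKM in all 6. BEST1 cannot be read, because its span overlaps FTH1. Only 8 of the 18 listed pigment epithelium markers passed the filter on level. Of 16 blood cell markers, CD3D and HBB were at 0 in all 6 libraries and only CD68 and CSF1R passed the filter on level.

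Of the 13037 genes, 679 rose in ZM447439 4N cells relative to 2N cells (5.21%) and 319 fell (2.45%), 998 in all (7.66%). On the log2 scale, which adds a constant to RPKM, at least 2-fold changes were found in 33 genes that rose and 1 that fell. The latter was an Ensembl gene without a symbol that overlaps LMOD1. These counts depended on the constant: with 0.1 RPKM they were 76 and 6, and with 1 RPKM 17 and 1. LMOD1 itself, with means of 0.83 RPKM in 4N and 1.95 RPKM in 2N cells, was not counted. With culture as a block 1099 genes were higher (8.43%) and 920 lower (7.06%), 2019 in all (15.5%). The split between directions depended on scaling: 68.0% of the calls were rises as deposited, 56.4% after rescaling to a common median ratio, with 574 rises and 443 falls, and 59.1% after quantile normalization, with 603 rises and 417 falls. With only the 6 ZM447439 libraries in the fit 0 genes passed in limma, with or without the block, and 2162 and 2687 genes had an unadjusted p under 0.05. The calls thus used the spread of the whole series.

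**Figure D1:**
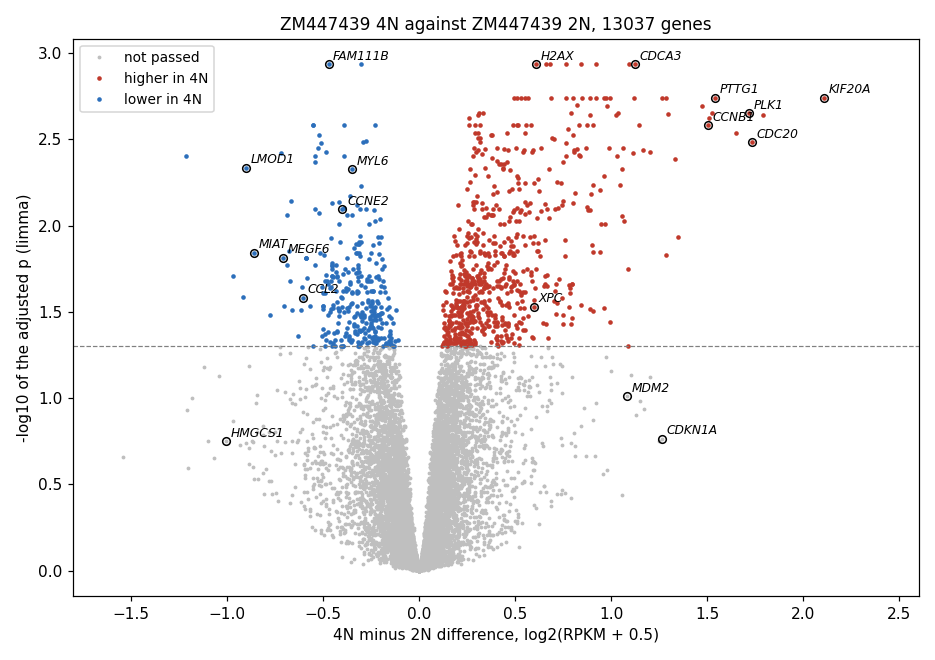
Each point is 1 of 13037 genes in ZM447439 cells, with the 4N minus 2N difference in log2(RPKM + 0.5) on the horizontal axis and −log10 of limma's adjusted p on the vertical axis. Red points (679) rose and blue points (319) fell, the dashed line is the threshold of 0.05, and circled genes are named in the text. KIF20A lies farthest to the right, at 2.11, and CDKN1A, MDM2 and HMGCS1 lie far from 0 but below the line.

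The 3 cultures did not differ alike between their sorts. Over all genes tested, the SD of the 4N minus 2N difference was 0.206 in culture 1, 0.301 in culture 2 and 0.32 in culture 3 (log2). Among the 998 genes called, 957 had the same sign in all 3 cultures, and in 902 of the 998 the difference was smallest in culture 1. Over all 13037 genes tested it was smallest in culture 1 in 7243. The median size among genes called was 0.157 in culture 1, 0.431 in culture 2 and 0.442 in culture 3. Over all genes tested it was 0.079, 0.137 and 0.146. The calls were made on these same differences, so the agreement in sign follows in part from the call. Described across genes, which are not independent, the differences of cultures 2 and 3 correlated at 0.72, those of cultures 1 and 2 at 0.19 and those of cultures 1 and 3 at 0.20. Both libraries of culture 1 stood apart from the other libraries of their groups, with an SD over genes of 0.273 for 4N and 0.321 for 2N cells, against 0.182 and 0.182 for the other 4N libraries and 0.196 and 0.217 for the other 2N libraries. Without culture 1, 1562 genes rose and 1196 fell. Without culture 2, 11 rose and 2 fell, and without culture 3, 0 rose and 0 fell in limma, although 1494 genes had an unadjusted p under 0.05. Leaving out single libraries gave 1512 rises and 1210 falls without the 2N library of culture 1, and 169 to 213 rises with 34 to 39 falls without any 1 library of culture 2 or 3. Implied library sizes of the 6 libraries were 51820000 to 64388000 reads, so depth differed little between them.

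Genes that work in mitosis were higher in 4N cells. Of 124 genes in 6 lists of mitotic functions, 103 passed the filter, 71 rose and 0 fell in 4N cells, beside 5.21% and 2.45% of all genes tested. Their median difference was 0.55, against 0.01 for all genes tested, and 77 were higher with culture as a block, beside 8.43% of all genes tested. The median was 0.24 in culture 1, 0.65 in culture 2 and 0.75 in culture 3. Without culture 1, 88 rose, without culture 2, 2 rose, and without culture 3, 0 rose, beside 1562, 11 and 0 of the 13037 genes tested. The rises in the single lists below were likewise 0 in each without culture 3. Without culture 2 they were 0 in each but the list of chromosome structure, with 2. In 84 of the 103 every 4N library lay above every 2N library, as in 13.7% of all genes tested.

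The gene with the largest rise was KIF20A, which encodes a kinesin that carries the passenger complex to the central spindle. It had 5.18, 8.95 and 9.87 RPKM in 4N cells of cultures 1, 2 and 3, against 2.85, 0.941 and 0.941 RPKM in 2N cells. The groups did not overlap, and the 2N library of culture 1 was the highest of the 2N libraries. The difference was 2.11 (SE 0.28, adjusted p = 0.00181). CDC20, the activator of the anaphase-promoting complex, had 8.66, 13.9 and 14.5 RPKM in 4N cells against 5.84, 2.50 and 2.32 RPKM in 2N cells (difference 1.74, SE 0.28, adjusted p = 0.00329). PLK1, a kinase of mitotic entry and spindle assembly, had 3.04, 4.77 and 4.82 RPKM in 4N against 1.71, 0.671 and 0.575 RPKM in 2N cells (difference 1.72, SE 0.25, adjusted p = 0.00223). In each of these genes the 4N library of culture 1 was the lowest of its group and the 2N library of culture 1 the highest of its group.

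**Figure D2:**
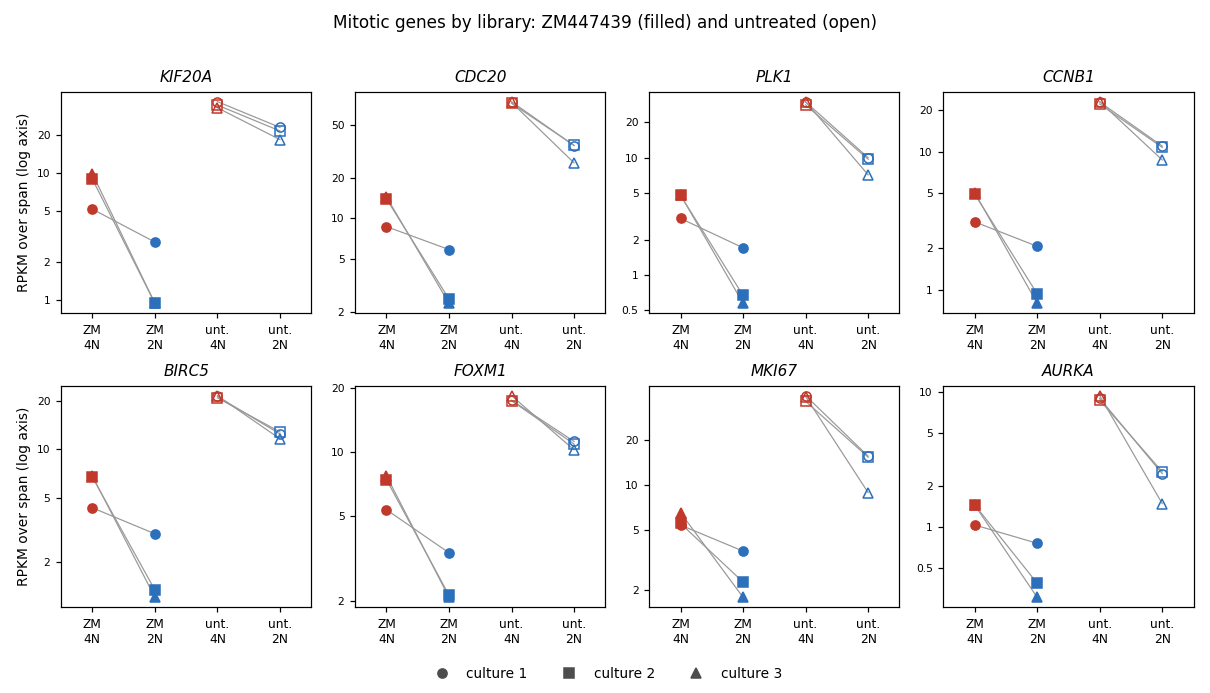
RPKM over the gene span on a log axis for 8 mitotic genes in each library of ZM447439 4N, ZM447439 2N, untreated 4N and untreated 2N cells. Red marks are 4N and blue marks 2N, filled with ZM447439 and open without treatment; the shape gives the culture number and grey lines join the sorts of a culture. Every ZM447439 4N library lies above every ZM447439 2N library, and all ZM447439 libraries of KIF20A, at most 9.87 RPKM, lie below the untreated ones.

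Among cyclins and kinases of mitotic entry 12 of 20 tested rose, beside 5.21% of all genes tested. CCNB1, cyclin B1, had 3.10, 4.94 and 5.06 RPKM in 4N cells against 2.06, 0.936 and 0.798 RPKM in 2N cells (difference 1.5, SE 0.23, adjusted p = 0.00262), with no overlap. CCNB2, cyclin B2, rose by 1.12 and CCNA2, cyclin A2, by 1.06. FOXM1, the transcription factor of this programme, had 5.38, 7.44 and 7.75 RPKM in 4N against 3.38, 2.14 and 2.09 RPKM in 2N cells (difference 1.29, SE 0.17, adjusted p = 0.00181). CDK1, the kinase that these cyclins activate, had 2.37, 1.94 and 1.91 RPKM in 4N against 1.82, 0.910 and 0.737 RPKM in 2N cells. Its groups did not overlap, but the difference of 0.69 (SE 0.25) had an adjusted p = 0.107, or 0.0329 with culture as a block. WEE1 and PKMYT1, which inhibit CDK1, had differences of 0.05 and -0.10 with adjusted p = 0.96 and 0.204.

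The drug acts on the Aurora kinases themselves. Of 7 Aurora and passenger complex genes tested, 5 rose, beside 5.21% of all genes tested. These were BIRC5, which encodes survivin, TPX2, the activator of Aurora A, and AURKA, CDCA8 and INCENP. BIRC5 had 4.35, 6.73 and 6.85 RPKM in 4N cells against 3.01, 1.35 and 1.22 RPKM in 2N cells (difference 1.51, SE 0.22, adjusted p = 0.00237). AURKA had 1.03, 1.46 and 1.45 RPKM in 4N against 0.758, 0.384 and 0.302 RPKM in 2N cells (difference 0.91, SE 0.19, adjusted p = 0.0142). Neither gene's groups overlapped. AURKB had 3.55, 2.90 and 3.03 RPKM in 4N against 2.61, 1.71 and 1.60 RPKM in 2N cells, again without overlap, and its difference of 0.58 (SE 0.18) had an adjusted p = 0.057, or 0.0388 with culture as a block.

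In the list of kinesins and cytokinesis genes 23 of 26 tested rose, beside 5.21% of all genes tested. Differences ran from 0.38 for ECT2 to the 2.11 of KIF20A, with a median of 0.62. PRC1, which bundles microtubules of the central spindle, rose by 1.17, CEP55, which recruits the abscission machinery, by 1.03, and KIF11, the motor that separates spindle poles, by 0.55. Of 17 genes of the spindle checkpoint and the anaphase-promoting complex 10 rose, beside the same 5.21%. PTTG1, securin, had 4.50, 6.84 and 6.87 RPKM in 4N cells against 2.91, 1.25 and 1.33 RPKM in 2N cells (difference 1.54, SE 0.21, adjusted p = 0.00181), with no overlap. UBE2C and UBE2S, which supply ubiquitin to the complex, rose by 1.29 and 0.78, and the checkpoint kinase gene BUB1 by 0.87, while the core subunit genes CDC27, CDC16 and CDC23 had differences of 0.07, -0.03 and 0.01 and did not pass. CDC23 overlaps KIF20A, and the kit did not mark strand.

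Kinetochore and centromere genes rose in 7 of 15 tested, beside 5.21% of all genes tested, among them CENPF by 1.02, CENPW by 0.83 and CENPM by 0.80. CENPA, the histone of the centromere, had a difference of 0.03 (adjusted p = 0.873). Of 18 genes of chromosome structure 14 rose, beside the same 5.21%. TOP2A, which untangles DNA before anaphase, had 7.05, 7.84 and 8.24 RPKM in 4N against 4.64, 3.19 and 2.74 RPKM in 2N cells (difference 1.05, SE 0.18, adjusted p = 0.00471). MKI67, the coat of mitotic chromosomes, rose by 1.09 and CDCA3 by 1.12. H2AX, a histone variant of DNA damage signalling, had 33.7, 37.5 and 37.3 RPKM in 4N against 24.1, 23.9 and 22.6 RPKM in 2N cells (difference 0.61, SE 0.07, adjusted p = 0.00116), with the 3 libraries of each group close together.

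The promoters of these genes carry letters by which the mitotic programme is known to be read. CCAAT boxes bind the factor NF-Y, and the letters TTTGAA form the core of the cell cycle homology region bound by MuvB. Promoters from 250 bases before to 50 after the start were taken from RefSeq (GRCh38.p14), and both motifs were searched on both strands. Of the 71 mitotic members that rose, 59 matched a promoter: 74.6% held at least 1 CCAAT, against 35.7% of all 27305 promoters, 47.5% held at least 2, against 11.3%, and 64.4% held TTTGAA, against 15.4%. Among the 28 matched members that did not pass the shares were 53.6%, 28.6% and 46.4%, and among 6706 promoters of genes tested 37.9%, 15.03% and 8.87%. As the lists were chosen for mitotic functions, the excess over all promoters does not bear on the rises. Whether members that rose differed in these shares from members that did not pass was not tested. Overlapping matches were counted apart, and a match is letters, not a bound site. The 140 bases before the start of 7 members are shown, from −140 to −1 on the strand of the gene with CCAAT, its reverse ATTGG and TTTGAA in capitals, because these genes rose by over 1 on the log2 scale and show both arrangements, with and without TTTGAA.
KIF20A: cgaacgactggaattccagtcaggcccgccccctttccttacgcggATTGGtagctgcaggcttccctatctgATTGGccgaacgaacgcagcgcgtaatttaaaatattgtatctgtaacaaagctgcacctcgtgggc
PTTG1: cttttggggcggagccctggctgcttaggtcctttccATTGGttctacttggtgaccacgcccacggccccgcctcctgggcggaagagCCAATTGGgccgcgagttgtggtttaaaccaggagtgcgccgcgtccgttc
CCNB1: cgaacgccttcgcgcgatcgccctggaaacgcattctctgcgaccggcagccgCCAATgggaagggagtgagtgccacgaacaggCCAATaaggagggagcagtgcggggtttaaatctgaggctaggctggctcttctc
CDC20: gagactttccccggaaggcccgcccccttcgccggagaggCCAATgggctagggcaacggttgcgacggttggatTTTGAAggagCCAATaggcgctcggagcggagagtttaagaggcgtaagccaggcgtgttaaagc
PLK1: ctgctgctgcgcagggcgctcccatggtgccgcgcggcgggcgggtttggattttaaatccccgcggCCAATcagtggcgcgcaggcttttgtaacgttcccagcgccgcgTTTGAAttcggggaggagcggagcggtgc
CCNB2: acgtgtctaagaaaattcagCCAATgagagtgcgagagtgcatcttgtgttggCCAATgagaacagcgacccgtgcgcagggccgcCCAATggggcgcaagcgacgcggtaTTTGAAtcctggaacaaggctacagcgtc
MKI67: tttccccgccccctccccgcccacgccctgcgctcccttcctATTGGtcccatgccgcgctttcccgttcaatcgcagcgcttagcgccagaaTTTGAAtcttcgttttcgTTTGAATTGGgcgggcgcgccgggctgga
KIF20A (chr5:138178972-138179111), PTTG1 (chr5:160421715-160421854) and CCNB1 (chr5:69167010-69167149) held 2 or 3 CCAAT letters and no TTTGAA in the window, and 2 of the 3 in PTTG1 overlap as CCAATTGG. CDC20 (chr1:43358841-43358980), PLK1 (chr16:23678749-23678888) and CCNB2 (chr15:59105006-59105145) held both, and MKI67 (chr10:128126424-128126563, minus strand) held TTTGAA in 2 places, one of them joined to a CCAAT read in reverse.

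The mitotic genes were nonetheless at a low level in ZM447439 cells. In 87 of the 103 tested, every ZM447439 4N library was below every untreated 2N library, which held for 33.6% of all genes tested. KIF20A, with at most 9.87 RPKM in ZM447439 4N cells, had 34.4 ± 1.93 RPKM in untreated 4N and 20.9 ± 2.32 RPKM in untreated 2N cells (SD, n = 3). CDC20, with at most 14.5 RPKM in ZM447439 4N cells, had 73.2 ± 0.998 RPKM in untreated 4N and 31.9 ± 5.22 RPKM in untreated 2N cells.

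Whether the difference between sorts itself differed with treatment was tested as an interaction, the difference between 4N and 2N cells under ZM447439 minus that in untreated cells. It passed for 1317 genes (10.1%), higher under ZM447439 in 459 (3.52%) and lower in 858 (6.58%), and with culture as a block for 2505 (19.2%), in 862 higher (6.61%) and in 1643 lower (12.6%). Of the calls, 34.8% were higher as deposited and 51.2% after quantile normalization, with 607 higher and 579 lower. In the mitotic lists 49 of 103 had a lower and 2 a higher difference under ZM447439. The median difference of the lists was 0.55 under ZM447439, 1.13 in untreated and 0.34 in CytochalasinD cells. The constant of 0.5 RPKM shrinks differences more at low levels, and most mitotic genes were lower under ZM447439. DLGAP5, a list member, had 0.855 RPKM in 4N and 0.232 RPKM in 2N cells under ZM447439, against 4.655 and 2.093 RPKM untreated (means, interaction -0.09). With a constant of 0.1 RPKM 443 of all genes tested were higher and 741 lower, and with 1 RPKM 475 and 934. The part of the constant in the lower differences was not tested. The largest shortfalls included UBE2C, at 1.29 under ZM447439 and 2.99 in untreated cells (interaction -1.70, adjusted p = 0.0138), CCNF, cyclin F, at 0.36 under ZM447439 and 2.04 in untreated cells (interaction -1.68, adjusted p = 6.21e-05), CDK1, at 0.69 under ZM447439 and 2.36 in untreated cells (interaction -1.68, adjusted p = 0.00843) and TOP2A, at 1.05 under ZM447439 and 2.40 in untreated cells (interaction -1.35, adjusted p = 0.00487). FZR1, which activates the anaphase-promoting complex in G1 in place of CDC20, was at 0.14 under ZM447439 and 1.39 in untreated cells (interaction -1.26, adjusted p = 8.42e-08). The 2 exceptions were KIF20A (interaction 1.39, adjusted p = 0.042, or 0.0887 with culture as a block) and PTTG1 (interaction 1.01, adjusted p = 0.0439, or 0.0966 with the block). Against CytochalasinD the interaction passed for 0 genes with or without the block in limma, with 753 and 1359 genes at an unadjusted p under 0.05. Without culture 1 of ZM447439 it passed for 326 higher and 117 lower, and without its 2N library alone for 192 and 75.

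**Figure D3:**
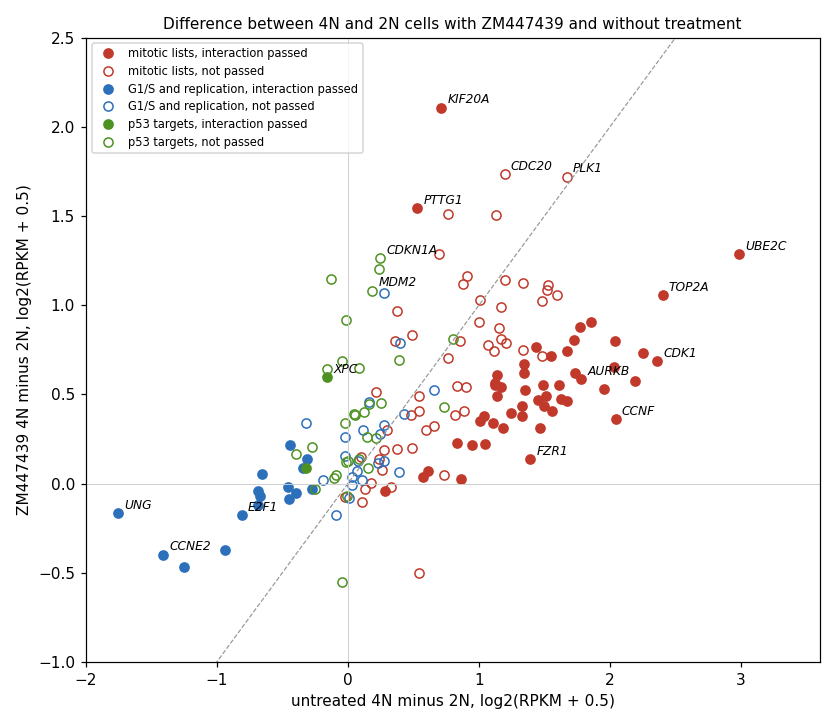
The 4N minus 2N difference with ZM447439 (vertical) is plotted against that in untreated cells (horizontal), in log2(RPKM + 0.5), for tested genes of the mitotic lists (red), of G1/S and replication (blue) and of p53 targets (green). Filled points passed the interaction test and the dashed line marks equal differences. Most filled red points lie below the line, KIF20A and PTTG1 above it, and 16 filled blue points lie above it, at ZM447439 differences from FAM111B at -0.47 to MCM5 at 0.22.

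Genes of the G1/S transition and of replication, which E2F factors switch on before S phase, differed in both directions. Of 38 tested, 6 rose (TK1, TYMS, GINS4, RRM1, DUT and MCM7) and 3 fell (FAM111B, CCNE2 and CDC6), beside 5.21% and 2.45% of all genes tested, with a median of 0.06. MCM7 did not pass with the block (adjusted p = 0.0884). Without culture 1, 13 rose and 3 fell, beside 1562 and 1196 of the 13037 genes tested. TK1, thymidine kinase, had 4.38, 5.50 and 5.55 RPKM in 4N cells against 3.23, 1.78 and 1.75 RPKM in 2N cells (difference 1.07, SE 0.21, adjusted p = 0.00938). TYMS, thymidylate synthase, rose by 0.79 and DUT, which clears dUTP, by 0.30. CCNE2, cyclin E2, had 0.534, 0.571 and 0.539 RPKM in 4N against 0.893, 0.894 and 0.854 RPKM in 2N cells (difference -0.40, SE 0.08, adjusted p = 0.00806). FAM111B, a serine protease, had 0.560, 0.520 and 0.475 RPKM in 4N against 0.915, 0.926 and 0.889 RPKM in 2N cells (difference -0.47, SE 0.06, adjusted p = 0.00116). Both fell with no overlap and alike in the 3 cultures. In untreated cells CCNE2 was lower in 4N cells by far more, with a difference of -1.41 (interaction 1.01, adjusted p = 9.02e-05). Beside 3.52% higher and 6.58% lower among all genes tested, 16 of the 38 genes had a higher and 0 a lower difference under ZM447439. These included MCM2, MCM3, MCM5 and MCM6 of the replicative helicase, with differences of -0.04, 0.06, 0.22 and -0.07 under ZM447439 and -0.69, -0.66, -0.44 and -0.67 in untreated cells. UNG, which removes uracil from DNA, had -0.17 under ZM447439 and -1.75 in untreated cells (interaction 1.59, adjusted p = 1.8e-05).

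Among G1 cyclins, CDKs and CDK inhibitors only CDKN2C, p18, rose of 12 tested (difference 0.46, SE 0.10, adjusted p = 0.0118), beside 5.21% of all genes tested. CCND1, cyclin D1, had 55.9, 35.4 and 34.4 RPKM in 4N cells against 69.3, 30.9 and 27.8 RPKM in 2N cells, so that culture 1 was the highest in both sorts and the groups overlapped (difference 0.06, SE 0.26, adjusted p = 0.922). MYC, a driver of growth, had 13.1, 8.65 and 8.88 RPKM in 4N against 14.2, 8.03 and 9.04 RPKM in 2N cells (difference -0.01, adjusted p = 0.986), with the same rank of culture 1. CDKN1C, p57, had 0.372, 0.585 and 0.669 RPKM in 4N against 0.213, 0.599 and 0.730 RPKM in 2N cells, lowest in culture 1 in both sorts (difference 0.07, adjusted p = 0.895). E2F1 had 1.49, 1.55 and 1.52 RPKM in 4N against 1.94, 1.81 and 1.61 RPKM in 2N cells, without overlap (difference -0.18, adjusted p = 0.154), and its difference of -0.81 in untreated cells was larger (interaction 0.63, adjusted p = 0.00191).

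Targets of p53, the factor that halts the cycle after damage or failed division, were higher in 4N cells when sorts were compared within cultures. CDKN1A, p21, which inhibits CDKs, had 123, 56.8 and 54.9 RPKM in 4N cells against 77.7, 18.3 and 18.7 RPKM in 2N cells. In each culture the 4N cells had more, but the 2N library of culture 1 exceeded the 4N libraries of cultures 2 and 3, so the groups overlapped. The difference was 1.26 (SE 0.55, adjusted p = 0.172), or with culture as a block 1.26 (SE 0.16, adjusted p = 0.00666). MDM2, the ubiquitin ligase that degrades p53, had 8.52, 4.32 and 4.39 RPKM in 4N against 5.71, 1.40 and 1.40 RPKM in 2N cells (difference 1.08, SE 0.38, adjusted p = 0.0976, or 0.00694 with the block), with the same overlap. Without the block 2 of 32 tested rose, XPC and CCNG1, a share near the 5.21% of all genes tested, and 0 fell. When culture 1 was left out, 14 rose, beside 1562 of the 13037 genes tested. With the block 20 were higher, beside 8.43% of all genes tested, and 1, GADD45B, was lower, and the median difference was 0.39. The median was 0.29, 0.42 and 0.41 in cultures 1, 2 and 3. XPC, which detects DNA lesions, had 2.64, 2.06 and 2.00 RPKM in 4N against 1.81, 1.08 and 1.09 RPKM in 2N cells, without overlap (difference 0.60, SE 0.15, adjusted p = 0.0296). The death genes BAX and BBC3 had differences of 0.69 and 0.69 with adjusted p = 0.0636 and 0.0893, or 0.0131 and 0.00533 with the block. XPC had -0.16 in untreated cells (interaction 0.75, adjusted p = 0.0377). With the block 16 of the 32 had a higher and 2 a lower difference under ZM447439 than in untreated cells, beside 6.61% and 12.6% of all genes tested. Without it 2 had a higher and 0 a lower difference, beside 3.52% and 6.58%. For CDKN1A the interaction of 1.02 had an adjusted p = 0.45, or 0.0187 with the block.

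**Figure D4:**
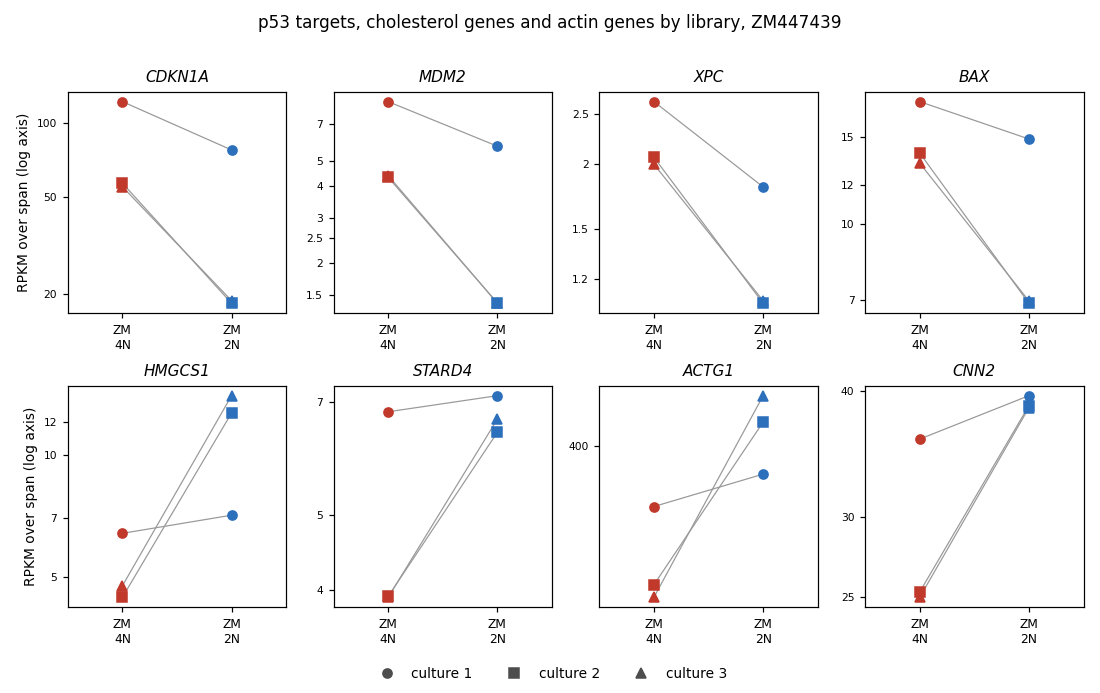
RPKM over the gene span, on log axes of different range, for 4 p53 targets, 2 cholesterol genes and 2 actin cytoskeleton genes in ZM447439 4N (red) and 2N (blue) cells. The shape gives the culture and grey lines join its sorts. The p53 targets slope down from 4N to 2N in each culture with culture 1 highest, CDKN1A reaching 123 RPKM, and HMGCS1 and STARD4 slope up steeply in cultures 2 and 3 and little in culture 1.

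Genes of cholesterol and fatty acid synthesis, which SREBP factors switch on, were lower in 4N cells in cultures 2 and 3. HMGCS1, an early enzyme of the pathway, had 6.4, 4.46 and 4.76 RPKM in 4N cells against 7.09, 12.7 and 13.98 RPKM in 2N cells. The groups did not overlap, but in culture 1 the sorts lay close together. The difference was -1.002 (SE 0.44, adjusted p = 0.178), or with culture as a block -1.002 (SE 0.24, adjusted p = 0.0332). STARD4, a carrier of cholesterol between membranes, had 6.79, 3.93 and 3.92 RPKM in 4N cells against 7.12, 6.39 and 6.64 RPKM in 2N cells, with overlap (difference -0.47, SE 0.19, adjusted p = 0.147, or 0.0533 with the block). Of 28 tested, 0 rose and 0 fell without the block, and 0 were higher and 15 lower with it, beside 7.06% of all genes tested. In 13 of the 28 all 4N libraries lay below all 2N libraries, as in 8.94% of all genes tested. The median difference was -0.52, made up of -0.05 in culture 1, -0.71 in culture 2 and -0.80 in culture 3. When culture 1 was left out, 4 of the 28 fell, beside 1196 of the 13037 genes tested.

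Genes of the actin cytoskeleton that SRF and its actin-sensing partner MRTF control fell in 8 of 34 tested, beside 2.45% of all genes tested, and 1, TMSB10, rose (adjusted p = 0.04), which it did not after rescaling to a common median ratio or with the block (adjusted p = 0.0512). Without culture 1, 18 fell and 2 rose, beside 1196 and 1562 of the 13037 genes tested. With the block 21 were lower, beside 7.06% of all genes tested, and 1 higher. The median was -0.27, and -0.13, -0.28 and -0.32 in cultures 1, 2 and 3. ACTG1, gamma actin, had 362, 318 and 312 RPKM in 4N cells against 382, 416 and 434 RPKM in 2N cells (difference -0.31, SE 0.07, adjusted p = 0.0124). MYL6, a myosin light chain, had 160, 139 and 138 RPKM in 4N against 188, 176 and 192 RPKM in 2N cells (difference -0.35, SE 0.06, adjusted p = 0.00471). CNN2, a calponin, had 35.9, 25.3 and 25.0 RPKM in 4N against 39.6, 38.7 and 38.5 RPKM in 2N cells (difference -0.45, SE 0.10, adjusted p = 0.0196). In all 3 genes the groups did not overlap and the 4N library of culture 1 lay nearest to the 2N cells. ACTA2, smooth muscle actin, had 3.45, 0.947 and 0.957 RPKM in 4N against 9.18, 2.46 and 3.03 RPKM in 2N cells, lower in 4N in each culture, with a difference of -1.20 and adjusted p = 0.256, or 0.000466 with the block. ACTB, beta actin, had -0.18 (adjusted p = 0.28). In untreated cells ACTG1 had 0.15 and MYL6 0.14 (interactions -0.47 and -0.49, adjusted p = 0.00539 and 0.00286). ACTG1 and MYL6 have near-identical copies or overlapping neighbours whose reads may be shared.

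The CArG box is the site that SRF binds. It was found in the promoters of 6 of 30 matched members of this list, against 1.28% of all 27305 promoters. As the list was chosen for control by SRF, this share does not bear on the falls in 4N cells. Among the 19 matched members that were lower with the block 5 held the box, and the promoter of MYL6 held none. Below are the 140 bases before the start of 2 members that fell, ACTG1 (chr17:81512800-81512939, minus strand) and CNN2 (chr19:1026468-1026607), with the CArG box in capitals.
ACTG1: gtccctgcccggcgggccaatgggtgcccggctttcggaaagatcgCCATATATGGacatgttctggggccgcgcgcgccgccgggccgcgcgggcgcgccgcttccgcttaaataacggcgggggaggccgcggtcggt
CNN2: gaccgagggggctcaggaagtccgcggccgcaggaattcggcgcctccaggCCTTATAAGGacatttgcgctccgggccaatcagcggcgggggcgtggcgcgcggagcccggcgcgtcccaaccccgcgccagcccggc
The boxes begin at −94 in ACTG1 and −89 in CNN2. As above, the letters say nothing of binding in these cells.

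YAP-TEAD targets were divided, with 2 rises (TK1 and AXL) and 2 falls (WTIP and TNFRSF12A) of 22 tested, beside 5.21% and 2.45% of all genes tested, and a median of -0.03. CCN2, a secreted target of this pathway, had 159, 63.7 and 58.8 RPKM in 4N against 232, 111 and 127 RPKM in 2N cells, with overlap (difference -0.81, adjusted p = 0.273, or 0.00658 with the block). With the block 4 YAP-TEAD targets were higher and 9 lower, beside 8.43% and 7.06% of all genes tested. Of 31 immediate early genes 1 fell, a share near the 2.45% of all genes tested, ZFP36, which destabilises inflammatory messages, with 21.3, 25.0 and 22.6 RPKM in 4N against 27.0, 39.7 and 37.5 RPKM in 2N cells (difference -0.57, SE 0.14, adjusted p = 0.0293). With the block 6 were higher and 11 lower, beside the same 8.43% and 7.06%. Centred on the mean of the 6 ZM447439 libraries, the median log2 level of this list was 0.45, -0.18 and -0.29 in 4N cells and 0.42, -0.15 and -0.15 in 2N cells of cultures 1, 2 and 3, so that both sorts of culture 1 were high. The part of that state of culture 1 in the other differences was not tested.

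In the next 4 lists members that fell are read beside the 2.45% of all genes tested that fell, and members that rose beside 5.21%. Of 31 lysosome genes 4 fell and 0 rose. GAA, which breaks down glycogen, had 2.74, 2.58 and 2.47 RPKM in 4N cells against 3.25, 4.23 and 4.44 RPKM in 2N cells (difference -0.52, SE 0.10, adjusted p = 0.00842), and HEXA, ATP6AP1 and LAMP1 fell by 0.32, 0.28 and 0.20. Without culture 1, 16 lysosome genes fell, beside 1196 of the 13037 genes tested. In the extracellular matrix list 1 of 25 fell, the collagen gene COL6A1, by 0.36, a share near that of all genes, and with the block 12 were lower, beside 7.06% of all genes tested, and 1 higher. Of 15 NF-kB and secreted inflammatory genes 2 fell, CCL2 and LIF, and the median was -0.08. With the block 3 were higher, IL1B among them, and 2 lower, beside 8.43% and 7.06% of all genes tested. CCL2, which attracts monocytes, had 19.7, 23.8 and 24.0 RPKM in 4N against 25.8, 37.8 and 41.6 RPKM in 2N cells (difference -0.60, SE 0.15, adjusted p = 0.0262). Of 25 interferon-stimulated genes IFITM1 and IFITM3 fell and OAS3 rose.

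In the tubulin list 4 of 15 rose, beside 5.21% of all genes tested. STMN1, stathmin, which takes tubulin from microtubules, had 10.5, 14.3 and 14.5 RPKM in 4N cells against 8.2, 5.14 and 5.21 RPKM in 2N cells (difference 1.04, SE 0.19, adjusted p = 0.00584). TUBA1B had 261, 235 and 232 RPKM in 4N against 218, 99.4 and 99.2 RPKM in 2N cells (difference 0.91, SE 0.23, adjusted p = 0.0314), and TUBA1C and TUBB4B rose by 0.65 and 0.60. The groups did not overlap in STMN1 and TUBA1B, and tubulin genes are so alike that reads may be shared among them. Of 22 heat shock and chaperone genes 3 rose, beside the same 5.21%, HSPD1, CCT5 and HSP90AB1, by 0.46, 0.36 and 0.29. In CCT5, a subunit of a chaperonin, the groups overlapped, the difference was -0.04 in culture 1, and it did not pass with the block (adjusted p = 0.038 without and 0.0612 with it). Without culture 1, 11 heat shock genes rose, and 1 did when libraries were rescaled to a common median ratio, beside 1562 and 574 of the 13037 genes tested. ENO1, a glycolytic enzyme, rose by 0.48 and was the only 1 of 26 glycolysis and hypoxia genes to pass, a share near that of all genes tested.

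Several lists had no member past the threshold in limma without the block. These were 27 genes of ER stress and ATF4, with 6 higher and 7 lower with the block, 9 histone genes, with 1 higher and 4 lower, 50 cytosolic ribosomal proteins, with 0 and 0, 15 mitochondrially encoded transcripts, with 0 and 0, 8 pigment epithelium markers, with 0 higher and 2 lower (KRT8 and KRT18), and 2 blood cell markers, with 1 higher, CD68. KRT8 and KRT18 overlap each other, so their reads may be shared. These counts with the block stand beside 8.43% of all genes tested that were higher and 7.06% that were lower. The ribosomal proteins had a median of -0.04 and a range of -0.17 to 0.12.

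**Figure D5:**
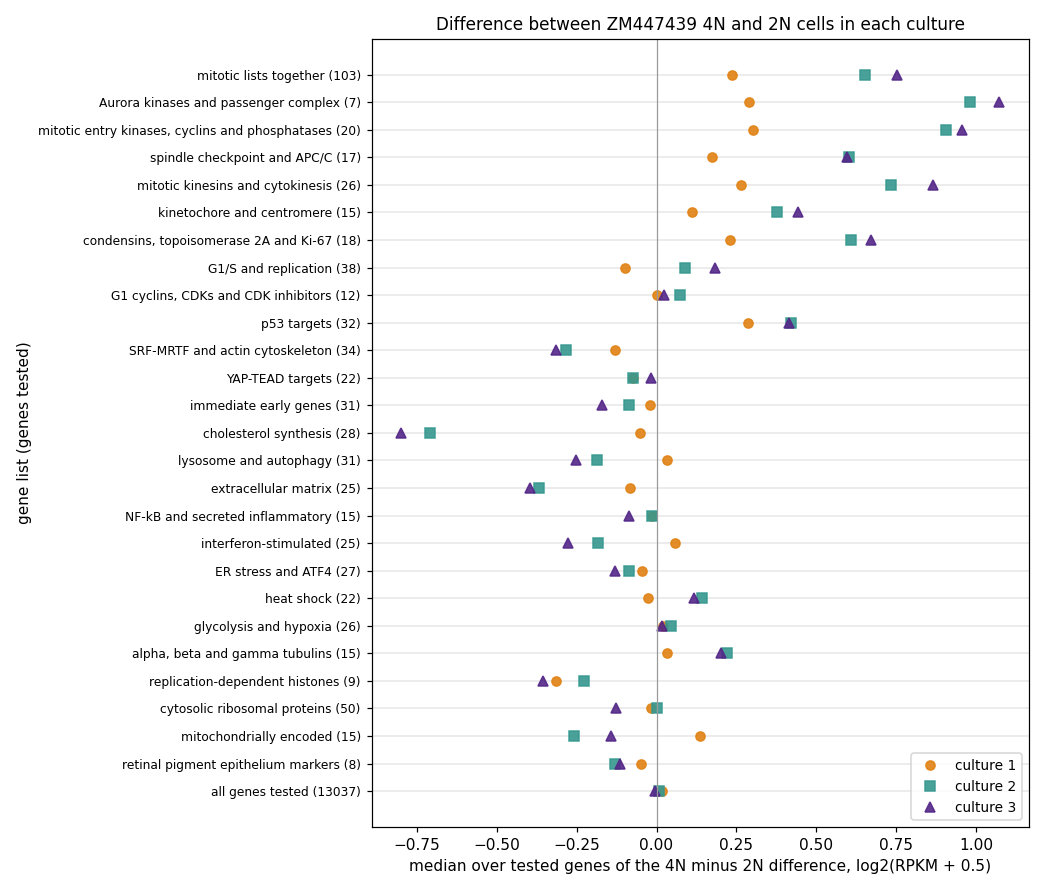
For each gene list, the median over its tested genes of the 4N minus 2N difference in log2(RPKM + 0.5) is drawn for cultures 1 (circles), 2 (squares) and 3 (triangles) of ZM447439; the number tested stands in brackets. Cultures 2 and 3 lie close together in most lists. Culture 1 lies nearer to 0 in the mitotic lists together (0.24, against 0.65 and 0.75) and in cholesterol synthesis (-0.05, against -0.71 and -0.80), and nearer to the others in the p53 targets (0.29, against 0.42 and 0.41).

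Of the genes with a symbol and the same sign in all 3 cultures, the 12 largest rises were KIF20A, CDC20, PLK1, PTTG1, BIRC5, CCNB1, PRR11-AS1, MIR3176, TROAP, SAPCD2, FOXM1 and UBE2C. PRR11-AS1 lies opposite PRR11 and cannot be told apart from it without strand. MIR3176 was read from 0 to 7 reads per ZM447439 library and lies within CAPN15. The 12 largest falls were smaller, from LMOD1 at -0.90 to MFRP at -0.59, and also held MIAT, CA11, MEGF6, SELENOM, PBXIP1, PIK3IP1, HSPB7, ALDH1B1, PCDHB14 and CCL2. LMOD1, leiomodin, an actin nucleator of smooth muscle, had 1.15, 0.692 and 0.647 RPKM in 4N cells against 1.95, 1.88 and 2.01 RPKM in 2N cells (difference -0.90, SE 0.15, adjusted p = 0.00464). MIAT, a long noncoding RNA, had 1.35, 1.41 and 1.32 RPKM in 4N against 2.10, 3.40 and 3.27 RPKM in 2N cells (difference -0.86, SE 0.18, adjusted p = 0.0144). PIK3IP1, a brake on PI3 kinase, had 3.32, 2.41 and 2.69 RPKM in 4N against 3.5, 5.12 and 5.91 RPKM in 2N cells (difference -0.68, SE 0.14, adjusted p = 0.0141). In these 3 genes the groups did not overlap. ALDH1B1, a mitochondrial aldehyde dehydrogenase, fell by 0.67 and MEGF6 by 0.71. MFRP shares reads with C1QTNF5.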

How the data were processed

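Polyadenylated RNA of 18 libraries was sequenced with a kit that, per the labels' protocols, does not mark strand. Reads of overlapping genes may thus be shared. Besides the overlaps given above, UBE2S overlaps RPL28, and CCNA2 overlaps EXOSC9. FOXM1 overlaps ITFG2 and RHNO1, and CCNE2 overlaps NDUFAF6 and INTS8. RPKM values for 57773 Ensembl genes were deposited in 1 table. Per the submitters' processing notes, CASAVA 1.8.2, TopHat2, edgeR and the hg19 build were used; how reads were counted is not given in the sources used. Tested on values worth under 200 reads, 85.6% to 86.3% were whole reads to within 0.05 if the genomic span was taken as length, 12.6% to 14.5% if exon length was taken, and 10% by chance. The implied library sizes were 51126000 to 78282000 reads over the series.

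Symbols came from GENCODE 29 and a table of gene names, for 40028 genes, and promoters from RefSeq. Kept were genes that averaged 0.5 RPKM or more over all libraries, 22.6% of the table. They lay on both sides of the filter without a gap, from TRAF5 at 0.5005 and MTRR at 0.500 inside to KCTD18 at 0.4994 outside. Since RPKM values allow no count model, log2(RPKM + 0.5) was fitted in limma 3.58.1 (R 4.3.3) with 1 mean per group over 18 libraries (12 residual and 2.02 prior degrees of freedom) and a trend on level. Tests were two-sided. The design names biological replicates. Libraries with the same number also deviated together: the correlation of their residuals was 0.441, 0.276 and 0.261 in ZM447439 cells, 0.194, 0.192 and 0.45 in untreated cells and 0.632, 0.325 and 0.405 in CytochalasinD cells, all over 0.1, so culture was used as the block. Some libraries with different numbers correlated as much: 0.323 for ZM447439 4N 3 with 2N 2, 0.258 and 0.22 in untreated cells and 0.385 in CytochalasinD cells. The script was tested on simulated data.

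Genes were named by a rule: the 12 largest rises and 12 largest falls with a symbol and 1 sign in all 3 cultures, the 3 members of lowest p in each of the 26 lists with enough members tested, 18 fixed cell cycle, p53, cholesterol and actin genes, 1 of them not reported here, and the 5 of lowest p in each interaction. Further list members are named where a count turns on them, and these were chosen after their values were seen. The members, the 26 lists with 732 entries and the tests were chosen with earlier results of these data known. Alternatives covered pseudocount, filter, scaling, block, samples fitted and libraries left out. Those in RPM (RPKM times span, mean of at least 1) and the block with quantile normalization were added after seeing the data.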

Additional observations from a re-analysis of the deposited data

Results flagged for a closer look

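In 29 named genes the 4N minus 2N difference under ZM447439 differed from that in untreated cells by the interaction test in limma (adjusted p under 0.05, no block); values are log2, ZM447439 minus untreated, and no explanation was weighed. It was higher under ZM447439 for MIR3176 (1.796, read from 0 to 7 reads), UNG (1.587), KIF20A (1.394), IL1B (1.035), PTTG1 (1.012), CCNE2 (1.01), FAM111B (0.777), XPC (0.754), E2F1 (0.631), HSP90AB1 (0.371) and PSPH (0.293). It was lower in the mitotic genes UBE2C (-1.701), CDK1 (-1.676), TOP2A (-1.349), FZR1 (-1.257), CDCA8 (-1.238), AURKB (-1.198), AURKA (-0.946) and H2AX (-0.533). The constant of 0.5 RPKM shrinks the ZM447439 difference more in genes of low level, such as AURKA. It was also lower for ARHGAP33 (-0.963), MEGF6 (-0.914), DCAF7 (-0.776), CDKN2C (-0.716), VANGL1 (-0.68), GAA (-0.562), MYL6 (-0.487), ACTG1 (-0.468), HEXA (-0.367) and ATP6AP1 (-0.346). With culture as a block KIF20A (adjusted p = 0.0887), PTTG1 (adjusted p = 0.0966) and AURKA (adjusted p = 0.0506) no longer passed. IL1B, which encodes an inflammatory cytokine, had 4.91, 4.01 and 4.29 RPKM in ZM447439 4N cells against 3.85, 2.70 and 2.98 RPKM in 2N cells (difference 0.42, adjusted p = 0.207, or 0.0114 with the block). The planar polarity gene VANGL1, DCAF7 and ARHGAP33 had differences of 0.08, 0.08 and 0.12 under ZM447439, against 0.76, 0.86 and 1.08 in untreated cells.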

How the results depend on the processing

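Of 110 named genes, 0 changed sign while called, under any alternative run. Genes differing between 4N and 2N cells under ZM447439 numbered 998; they were 208 to 2722 with 1 library left out, 2758, 13 and 0 without culture 1, 2 or 3, and 0 with the 6 libraries alone, with or without the block. With culture as a replicate block they were 2019, 2166 with rescaling and 2182 with quantile normalization, and 4167, 20 and 51 without culture 1, 2 or 3. In RPM they were 1520, or 4367 with the block. Without a filter 711 passed of 45103 genes, and the other pseudocounts, filters and limma settings gave 866 to 995, and rescaling and quantile normalization without the block 1017 and 1020. The interaction with untreated cells, 1317 genes, ranged from 784 to 2429 with 1 library left out and was 2689, 548 and 569 without culture 1, 2 or 3. With the block it was 2505, 2330 with rescaling, 2348 with quantile normalization and 4229 without culture 1, and in RPM 2284, or 5070 with the block. The interaction with CytochalasinD, 0 genes, was 0 to 267 with 1 library left out, 443 without culture 1, or 1103 with the block as well, 4 without a filter, 2 with the block and rescaling and 13 with the block in RPM. The cause of these shifts was not tested. With the block, of the 110 named genes 20 newly passed and 1, CCT5, was lost, and 27 of the 54 list counts moved by over 1.5 times. With 3 libraries a group, calls rested on a spread shared with the other treatments.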

Other observations

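Values of 3 further groups are given as descriptions, and the groups were chosen after their values were seen. Clustered protocadherin beta genes, which encode adhesion proteins of the cell surface, were lower in ZM447439 4N cells. Of 8 tested, 4 fell (PCDHB9, PCDHB10, PCDHB14 and PCDHB15), beside 2.45% of all genes tested. With culture as a block 6 were lower, beside 7.06%, PCDHB15 not among them (adjusted p = 0.04 without and 0.0577 with the block). In 7 all 4N libraries lay below all 2N libraries, as in 8.94% of all genes tested. PCDHB10 had 0.702, 0.482 and 0.566 RPKM in 4N cells against 1.16, 1.07 and 1.11 RPKM in 2N cells (difference -0.58, adjusted p = 0.0202), and PCDHB5 had 1.48, 1.12 and 0.893 RPKM in 4N against 2.30, 1.76 and 1.90 RPKM in 2N cells (difference -0.59, adjusted p = 0.0587, or 0.00465 with the block). These genes are close relatives with neighbouring exons, so reads may be shared among them.

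HMGN2, a nucleosome-binding protein, had 88.0, 120 and 120 RPKM in 4N cells against 66.6, 48.8 and 50.04 RPKM in 2N cells (difference 0.98, adjusted p = 0.00203). Of its 13 pseudogenes tested 11 rose, beside 5.21% of all genes tested. With culture as a block 9 were higher, beside 8.43%, without HMGN2P32 and HMGN2P36 (adjusted p = 0.0515 and 0.0799 with the block). The differences of all 13 ran from 0.14 to 1.26. The pseudogenes copy the parent's sequence, and reads of HMGN2 placed on them cannot be told apart from their own. Over the table, 133 of 1839 processed pseudogenes rose and 12 fell, against 423 and 237 of 7750 protein-coding genes.

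The enzymes of serine synthesis were higher in 4N cells with culture as a block, as were 8.43% of all genes tested. PHGDH, PSPH and SHMT2 belong to the ER stress and ATF4 list. Of its 27 genes tested 0 passed without the block, 6 were higher and 7 lower with it, and the median was -0.12. PHGDH, which commits glucose carbon to serine, had 0.672, 1.13 and 1.15 RPKM in 4N cells against 0.535, 0.551 and 0.550 RPKM in 2N cells, without overlap (difference 0.49, adjusted p = 0.0548, or 0.017 with the block). PSPH and PSAT1, the next enzymes, had differences of 0.19 and 0.36 (adjusted p = 0.0585 and 0.33, or 0.0136 and 0.043 with the block), and SHMT2, which passes carbon from serine to folate, had 0.37 (adjusted p = 0.151, or 0.0119 with the block).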
